A study of Mus musculus with 4 samples.

Results

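Hepatocytes, the parenchymal cells of the liver, were taken from 2 of the 4 barcode suffixes of a pooled single-cell RNA count matrix of a mouse hepatocellular carcinoma (HCC) model and compared with each other: 4389 barcodes ending in suffix 2 and 5137 ending in suffix 4, 9526 of the 36150 barcodes that passed the quality filters. They were chosen by measured counts. A barcode needed at least 500 UMIs (unique molecular identifiers, each standing for 1 captured RNA molecule), at least 200 genes, under 20% of UMIs from mt- genes, at least 10 UMIs over Alb, Apoa1, Apoa2 and Ttr, and at most 1 UMI over 12 genes of other liver cells (Ptprc, Coro1a, Laptm5, Tyrobp, Cd79a, Cd3g, Clec4g, Dnase1l3, Plvap, Egfl7, Dcn and Klf1). A suffix marks the library a barcode came from. The study sampled livers of mice with a gene-induced tumour model as HCC-NL, normal liver at week 0, and as tumour tissue in HCC-ES at week 4, HCC-MS at week 8 and HCC-LS, which its sample label places at week 10 and the series text at week 12. The inducing genes, the strain, the sex and the age of the mice, and whether animals were pooled, could not be taken from the labels. The tissue was digested, filtered, cleared of red blood cells with a lysis buffer and run on a 10x Genomics 3′ kit. No file used here ties a suffix to a stage, so suffixes 2 and 4 are named by number and no statement about time is made. With 1 library on each side there was no replicate: every interval given is a 95% interval for counting error alone, and the differences are between these libraries.

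Hepatocytes secrete most plasma proteins, store and release fuel, and detoxify ammonia and drugs. They divide this work along the blood's path through the lobule: cells near the portal inflow break down glutamine and make urea, and cells around the central vein, under Wnt and beta-catenin signalling, make glutamine with Glul and carry many detoxifying enzymes. Liver tumours with active beta-catenin keep the central-vein programme, and liver tumours in general often switch on fetal genes such as Afp, H19, Igf2 and Dlk1. The pulsed male pattern of growth hormone sets another layer of hepatocyte expression in mice, with Mup, Cyp and Sult genes that differ between the sexes.

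The libraries were of like size and unlike in some technical measures. The hepatocytes summed to 29401825 UMIs in suffix 2 and 29412364 in suffix 4, with medians of 4554 and 3856 UMIs and 1793 and 1486 genes a cell. Mitochondrial UMIs had medians of 1.11% and 0.698%, and 8.77% and 4.59% of cells held over 10%. The rule's hepatocyte sum had medians of 34 and 26 UMIs; 282 and 455 barcodes lay just inside its limit at 10 or 11 UMIs (median depth 1210 and 1607), and 266 and 474 lay just outside at 8 or 9 (median depth 1047 and 1109.5). A single UMI of the other cells' genes was held by 14.9% of suffix 2 members and 7.65% of suffix 4 members. Of the barcode sequences, 122 occurred under both suffixes, 34 of them among hepatocytes of both. Summed levels are given in UMIs of the gene scaled to equal library totals (CPM). The genes that the rule required had 3268 and 2762 CPM for Alb, 2923 and 3209 for Apoa1, 3739 and 3519 for Apoa2 and 2651 and 2377 for Ttr. Outside the rule, Hnf4a had 94.2 and 83.9 CPM, Apob 893 and 587 CPM and Ahsg 5318 and 3731 CPM. Of the 11 hepatocyte markers outside the rule with a mean of at least 10 CPM, 1 (Cps1) was at least 2-fold higher in suffix 2. In suffix 4, 2 were (Serpina3k and Tat).

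Of 7119 genes with a mean of at least 10 CPM, 320 (4.5%) were at least 2-fold higher in suffix 2 and 49 (0.688%) at least 2-fold higher in suffix 4. This lean towards suffix 2 depended on the scaling. Scaled to total UMIs, the median gene had a log2 ratio (suffix 2 over suffix 4) of 0.21, and 72.6% of genes were above 1-fold. With trimmed mean (TMM) factors the median was -0.05 and the counts were 152 and 101, so that 60.1% of the genes past 2-fold were higher in suffix 2 in place of 86.7%; the 152 were all among the 320, and the 49 all among the 101. At a mean of at least 50 CPM the counts were 50 and 20, or 71.4%, and at 3-fold 72 and 18, or 80.0%. All ratios below use total UMIs, and list medians, where given, are to be read against the 0.21 of all genes. "Past 2-fold" below means a ratio of at least 2 with that minimum level.

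**Figure D1:**
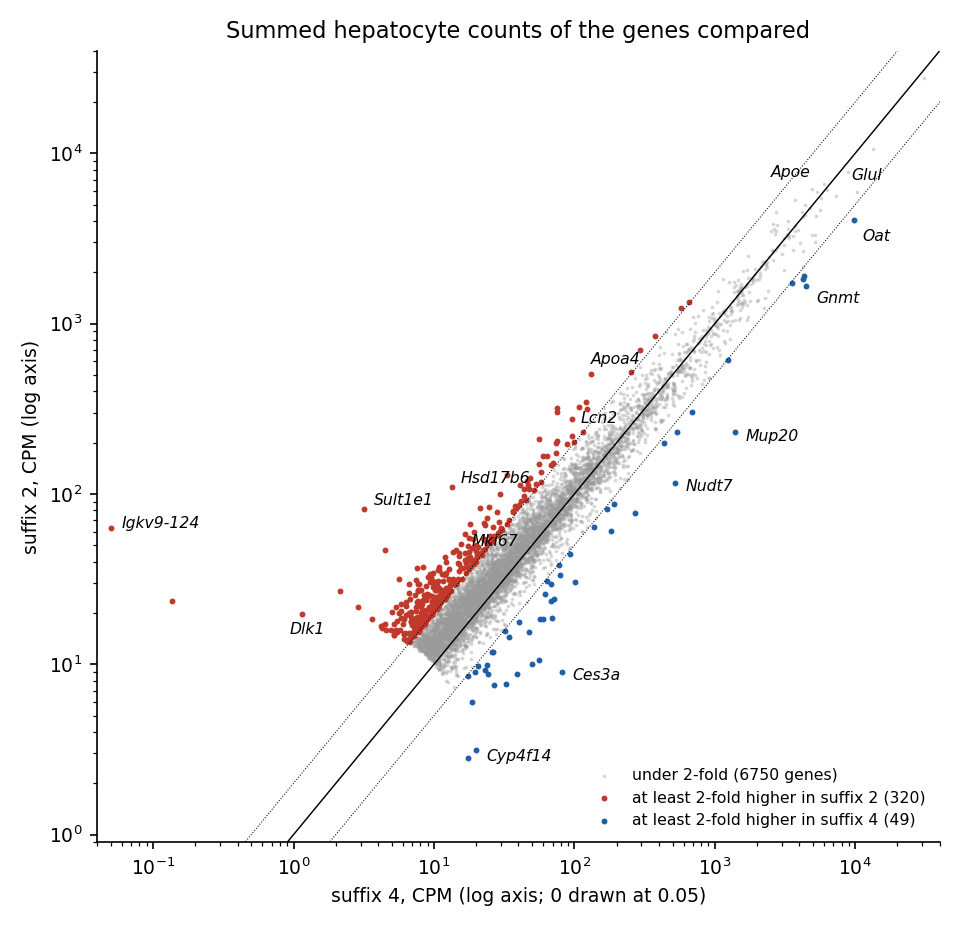
Each point is 1 of the 7119 genes compared, with its summed level in suffix 4 hepatocytes on the horizontal axis and in suffix 2 hepatocytes on the vertical axis, both in CPM on log axes; colours mark the 320 genes at least 2-fold higher in suffix 2 and the 49 at least 2-fold higher in suffix 4. Igkv9-124, with 0 UMIs in suffix 4 and drawn near the left edge, Sult1e1 and Dlk1 lie far above the diagonal, and Mup20 and Ces3a far below it.

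The genes that were higher in suffix 4 had the central-vein programme, the breakdown of amino acids and growth hormone-dependent secretion among them. Glul, glutamine synthetase, stood at 5912 CPM (5884-5939.6) in suffix 2 and 10332 CPM (10296-10369) in suffix 4, 1.75-fold higher in suffix 4 (1.74-1.76). Oat, ornithine aminotransferase, stood at 4064 CPM (4041-4087) and 9816 CPM (9781-9852), 2.42-fold higher (2.40-2.43). Nkd1, a feedback inhibitor of Wnt signalling, stood at 26.0 CPM (24.2-27.9) and 62.0 CPM (59.2-64.9), 2.38-fold higher (2.19-2.60). Their intervals in the 2 libraries did not overlap, but these hold counting error alone, which is small at such totals. How many of all genes compared had intervals apart was not counted. Further Wnt-dependent or central-vein genes were higher by less than 2-fold: the feedback gene Axin2 had 20.8 and 32.5 CPM, the transcription factor Sp5 15.9 and 29.9 CPM, the ammonia transporter Rhbg 17.0 and 32.1 CPM, and Cyp2e1, which oxidises ethanol and many drugs, 3014 and 5190.4 CPM. Of the 26 Wnt and central-vein genes compared (of 30 listed), 2 were past 2-fold in suffix 4 (Oat and Nkd1) and 0 in suffix 2, a count that was 7 and 0 with TMM factors; the list's median log2 ratio was -0.33, and 22 of the 26 lay at or below the median of all genes. Cyp2a5 was the member farthest the other way, with a log2 ratio of 0.70.

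Sp5 is a direct target of beta-catenin through TCF factors, and its promoter is printed because its window holds their site. The window runs from 250 bases before to 50 bases after the annotated start (RefSeq, GRCm38.p6, chr2:70474673-70474972, plus strand), 5′ to 3′, with the letters CTTTGAT, searched on both strands, in capitals.
Sp5: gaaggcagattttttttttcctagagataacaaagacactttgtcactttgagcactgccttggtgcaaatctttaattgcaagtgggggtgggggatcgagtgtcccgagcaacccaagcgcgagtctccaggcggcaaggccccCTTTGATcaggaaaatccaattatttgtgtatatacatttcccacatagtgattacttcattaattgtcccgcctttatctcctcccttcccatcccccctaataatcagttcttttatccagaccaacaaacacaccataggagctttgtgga
The match starts 104 bases before the start site. The same letters occurred in 3.73% of all 32851 promoter windows, in 2.51% of those of the genes compared, and in 5 of the 26 windows of the Wnt and central-vein list (Sp5, Slc1a2, Lect2, Cyp2c29 and Psmd4). The windows of Glul, Oat, Axin2 and Nkd1 did not hold these letters.

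Most listed enzymes that break down amino acids were higher in suffix 4, and the 2 under the minimum level, Sds and Hal, were higher in suffix 2 (9.80 and 1.05 CPM for Sds, 10.1 and 2.45 CPM for Hal). All 24 members compared of 26 listed lay at or below the median of all genes, with a median log2 ratio of -0.64; 5 were past 2-fold in suffix 4 and 0 in suffix 2, and 11 and 0 with TMM factors. Gnmt, which uses up methyl groups from S-adenosylmethionine, stood at 1661 CPM (1646-1676) in suffix 2 and 4467 CPM (4443-4492) in suffix 4, 2.69-fold higher (2.66-2.72). Hpd and Tat, which act one after the other on tyrosine, stood at 1732 and 199 CPM in suffix 2 and at 3529.8 and 433 CPM in suffix 4. Mat1a, which makes S-adenosylmethionine, had 611 and 1233 CPM, and Got1, an aspartate aminotransferase, 81.2 and 171 CPM. Their ratios were 2.04 for Hpd, 2.17 for Tat, 2.02 for Mat1a and 2.11 for Got1, all close to the 2-fold limit.

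Most portal-side genes compared leaned to suffix 2, whereas the summed level of the list was higher in suffix 4. Summed over the 22 listed genes, Ass1 among them, it was 5429 CPM in suffix 2 and 6917 CPM in suffix 4. Of those compared, 10 lay above the median of all genes and 5 at or below it. Of the 15 compared of 22 listed, 8 were past 2-fold in suffix 2 and 1, Tat, in suffix 4 (6 and 1 with TMM factors), with a median log2 ratio of 1.04. Hsd17b6, an enzyme of androgen and retinol metabolism, had 109.6 CPM (106-113) in suffix 2 and 13.5 CPM (12.2-14.9) in suffix 4, 8.14-fold higher (7.33-9.05). Sfxn1, a mitochondrial serine carrier, was 4.49-fold higher (29.6 and 6.60 CPM), and Gls2, the liver glutaminase, 3.52-fold higher (20.4 and 5.81 CPM). The urea cycle divided. Cps1, its entry enzyme, was 2.05-fold higher in suffix 2 (522 and 254 CPM) and Arg1, its last, 2.16-fold higher (79.3 and 36.8 CPM), whereas Ass1 was 1.58-fold higher in suffix 4 (3304 and 5206 CPM) and Asl (165 and 209 CPM) and Otc (230.3 and 283 CPM) leaned the same way. With TMM factors neither Cps1 nor Arg1 was past 2-fold (log2 0.79 and 0.86). Sds and Hal, which break down serine and histidine, fell under the minimum level, at 9.80 and 1.05 CPM for Sds and 10.1 and 2.45 CPM for Hal.

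Mup20, Mup3, Igf1 and Bcl6, of the growth hormone and insulin-like growth factor list, were lower in suffix 2 than in suffix 4, and Igfbp2 and Cish were higher. Mup20, a major urinary protein, stood at 229.9 CPM (224-235) in suffix 2 and 1404 CPM (1391-1418) in suffix 4, 6.11-fold higher in suffix 4 (5.95-6.27). Mup3, of the same family, stood at 10.00 CPM (8.89-11.2) and 50.1 CPM (47.6-52.8), 5.02-fold higher (4.42-5.70). Igf1, the growth factor that the liver releases under growth hormone, stood at 18.4 CPM (16.8-19.98) and 59.9 CPM (57.2-62.8), 3.26-fold higher (2.96-3.60). Bcl6, a transcriptional repressor in the same pathway, was 3.54-fold higher (7.58 and 26.8 CPM). Those were the 4 of the list's 10 compared genes (of 18) past 2-fold in suffix 4; the median log2 ratio was -0.73, and with TMM factors 5 were past it. The receptor Ghr (55.0 and 80.4 CPM) and the feedback inhibitor Socs2 (34.5 and 65.1 CPM) leaned the same way by less. Igfbp2, which binds insulin-like growth factors, was 2.99-fold higher in suffix 2 (323 and 108 CPM), and Cish, an inhibitor of cytokine signalling under the minimum level, had 15.2 and 3.98 CPM.

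Genes that differ between the sexes in mouse liver were found on both sides of the comparison. Sult1e1, the female-biased oestrogen sulfotransferase, had 81.3 CPM (78.1-84.6) and 3.16 CPM (2.55-3.87), a ratio of 25.7 (20.9-32.0). Of the other female-biased genes, Sult2a1 had 45.1 and 16.7 CPM, Cyp17a1, an enzyme of steroid synthesis, 17.3 and 4.45 CPM, and, under the minimum level, Cyp3a41a 7.92 and 1.09 CPM and Cyp2a4 3.06 and 0.578 CPM. Of the male-biased genes, Mup20, Nudt7 (a peroxisomal coenzyme A diphosphatase, 116 and 521 CPM) and Sult2a8 (7.62 and 32.8 CPM) were past 2-fold in suffix 4. Of the 33 listed sex-biased genes 14 were compared, 4 past 2-fold in suffix 2, of which 3 are given here, and 3 in suffix 4, with TMM factors 4 and 4. Several strongly male-biased genes were near 0 in both libraries and not in the other suffixes: Mup1 had 0.170 CPM in suffix 2 and 0.136 in suffix 4 against 421 in suffix 1 and 1198 in suffix 3, Hsd3b5 0.442 and 0.510 against 163 and 46.9, and Elovl3 1.46 and 3.03 against 503 and 116. Of the sex-chromosome genes, Xist, which coats the inactive X of females, had 3 and 1 UMIs, and Y-linked genes were present in both, Ddx3y at 31.2 and 36.1 CPM and Eif2s3y at 49.5 and 33.0 CPM.

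The listed drug-metabolising enzymes were near balance or leaned to suffix 4. Some of them, such as Sult2a8, Cyp2e1 and Cyp2a5, are also in the lists above. The sulfotransferases Sult1e1 and Sult2a1, higher in suffix 2 as given above, are not in the list of conjugating enzymes. Of 29 conjugating enzymes compared (of 38), 25 lay at or below the median of all genes, with a median log2 ratio of -0.38; Sult2a8 and Gstp2, a glutathione transferase with 60.6 and 182 CPM, were past 2-fold in suffix 4, and with TMM factors 5 were. Of 27 cytochromes P450 (of 43), Cyp4f14 (3.13 and 19.8 CPM), Cyp2c50 (18.7 and 69.2 CPM) and Cyp2c67 (15.6 and 47.5 CPM) were past 2-fold in suffix 4, 5 with TMM factors, and the list's median was 0.01. Ces3a, a carboxylesterase of the endoplasmic reticulum, had the largest ratio towards suffix 4 among the genes compared, at 9.01 CPM (7.96-10.2) against 81.1 CPM (77.9-84.4), a ratio of 9.001 (7.92-10.3). Nnmt, which methylates nicotinamide, was 3.53-fold higher in suffix 4 (76.9 and 271 CPM), and Phyh, which starts the breakdown of phytanic acid, 2.32-fold (1821 and 4225 CPM).

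Genes of DNA replication and mitosis were higher in suffix 2. Of 35 genes of the G2 and M phases compared (of 49), 25 were past 2-fold in suffix 2 and 0 in suffix 4, and 17 and 0 with TMM factors; the median log2 ratio was 1.27 and all 35 lay above the median of all genes. Of 28 S-phase genes (of 38), 19 and 0 were past it, 14 and 0 with TMM factors, with a median of 1.25. Mki67, a coat protein of mitotic chromosomes, had 50.6 CPM (48.04-53.2) and 15.7 CPM (14.3-17.2), a ratio of 3.23 (2.90-3.59). Top2a, which untangles DNA, had 35.9 and 10.8 CPM, a ratio of 3.32 (2.92-3.77), and Rrm2, which makes deoxynucleotides, 66.8 and 18.02 CPM, a ratio of 3.71 (3.36-4.09). Cdk1, the kinase that starts mitosis, had 67.3 and 22.8 CPM, and Aurkb, a kinase of chromosome segregation, 32.7 and 9.55 CPM. Lymphocyte barcodes of the same libraries (764 and 654 barcodes with at least 3 UMIs over Cd3d, Cd3e, Cd3g, Cd79a, Cd79b and Ms4a1, with medians of 2815 and 1857.5 UMIs) differed in the same direction, with Mki67 at 79.3 and 45.4 CPM. Their part in the hepatocyte values was not tested.

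Cells were therefore also compared at equal depth. Each cell was thinned to 1000 UMIs, which left out 358 and 441 hepatocytes and kept 4031 and 4696, with 760 and 647 lymphocyte barcodes. At least 2 UMIs over the S-phase list were then held by 29.9% (28.5-31.3) of suffix 2 hepatocytes and 10.6% (9.70-11.5) of suffix 4 hepatocytes, and by 30.7% and 17.3% of lymphocyte barcodes. For the G2 and M list the shares were 55.8% (54.2-57.3) and 32.0% (30.7-33.4) in hepatocytes and 56.4% and 36.6% in lymphocyte barcodes. The hepatocyte shares were no higher than those of the lymphocyte barcodes in either library, and no share of dividing hepatocytes is read from them.

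Promoters of G2 and M genes are known to share a CCAAT box and a cell-cycle homology region (CHR, TTTGAA). The windows of 3 members past 2-fold are printed to show both elements (RefSeq, GRCm38.p6, 250 bases before to 50 after the start, 5′ to 3′ on the gene's strand, here minus for each: Mki67 chr7:135716330-135716629, Top2a chr11:99024140-99024439, Cdk1 chr10:69352863-69353162). Capitals mark each CCAAT or TTTGAA, or their reverse complements.
Mki67: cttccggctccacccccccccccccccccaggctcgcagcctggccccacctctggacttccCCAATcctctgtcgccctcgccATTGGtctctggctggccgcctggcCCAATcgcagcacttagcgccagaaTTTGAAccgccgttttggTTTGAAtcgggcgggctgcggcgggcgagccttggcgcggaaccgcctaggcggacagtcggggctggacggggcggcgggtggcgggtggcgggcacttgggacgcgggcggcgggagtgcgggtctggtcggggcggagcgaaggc
Top2a: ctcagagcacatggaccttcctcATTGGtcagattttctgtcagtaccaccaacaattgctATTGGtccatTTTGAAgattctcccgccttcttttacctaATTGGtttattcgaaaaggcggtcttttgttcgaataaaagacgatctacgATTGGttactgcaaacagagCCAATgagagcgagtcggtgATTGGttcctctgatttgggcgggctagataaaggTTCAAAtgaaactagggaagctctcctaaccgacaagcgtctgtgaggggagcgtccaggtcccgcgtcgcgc
Cdk1: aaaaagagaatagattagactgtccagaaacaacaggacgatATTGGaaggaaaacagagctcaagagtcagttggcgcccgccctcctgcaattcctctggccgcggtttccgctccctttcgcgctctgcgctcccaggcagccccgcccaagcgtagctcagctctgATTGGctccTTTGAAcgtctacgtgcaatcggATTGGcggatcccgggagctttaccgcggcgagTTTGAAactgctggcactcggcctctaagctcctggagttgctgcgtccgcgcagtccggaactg
Mki67 held 3 CCAAT and 2 TTTGAA matches, Top2a 6 and 2, and Cdk1 3 and 2. Windows were found for 39 of the 49 listed genes, and 62.5% of their 40 windows held both sets of letters, against 6.95% of all windows and 5.20% of those of the genes compared. Among the 25 members past 2-fold, 15 of the 19 windows found (78.9%) held both. The S-phase list's windows held CCAAT in 54.3% and TTTGAA in 11.4%. All windows held them in 37.4% and 17.9%, and those of the genes compared in 38.6% and 12.5%. These shares describe the letters in the windows and not binding.

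Growth and protein-folding genes leaned to suffix 2 as broad, small differences. Of 35 genes of the Myc and nucleolar list, 29 lay above the median of all genes with a list median of 0.63, and Tfrc, the transferrin receptor (54.2 and 19.01 CPM), Cad, which starts pyrimidine synthesis (38.8 and 15.0 CPM), and Nop56, a nucleolar protein (90.5 and 42.0 CPM), were past 2-fold; with TMM factors 2 were. Myc itself had 247 CPM (241-253) and 211 CPM (206-217), and its log2 ratio of 0.22 was -0.03 with TMM factors. Of 26 genes of the unfolded-protein and integrated stress responses (of 32), 24 lay above the median of all genes and 5 were past 2-fold: Phgdh and Psat1, which make serine, the amino acid transporter subunit Slc3a2, and the disulfide isomerases Pdia3 and Pdia6. Their ratios were between 2.03 for Pdia3 and Pdia6 and 2.37 for Phgdh, and 0 were past it with TMM factors. The chaperone Hspa5 had 215 and 135 CPM. Nuclear genes of oxidative phosphorylation went the other way within a narrow band: 74 of the 75 compared (of 76) lay at or below the median of all genes, with a list median of -0.08 and 0 past 2-fold in either direction. Proteasome genes were alike, with 29 of 31 at or below it and a list median of -0.11. The 13 genes encoded in mitochondrial DNA all lay above it, with a list median of 0.48, beside the higher mitochondrial share of suffix 2 given above.

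Acute-phase genes, which hepatocytes secrete in inflammation, leaned to suffix 2: of 28 compared (of 35), 26 lay above the median of all genes, with a list median of 0.76, and 6 were past 2-fold in suffix 2 and 1 in suffix 4 (3 and 1 with TMM factors). Lcn2, which binds bacterial iron carriers, had 276 CPM (270.3-282) and 96.2 CPM (92.6-99.8), a ratio of 2.87 (2.75-3.00). Apcs, serum amyloid P, had 58.4 and 16.8 CPM, a ratio of 3.49 (3.15-3.86). The metal-binding Mt1 had 1344 and 654 CPM. Serpina3k was the exception, 5.29-fold higher in suffix 4 (10.6 and 56.1 CPM). Of 14 chemokine and cytokine genes (of 27), 5 were past 2-fold in suffix 2 and 0 in suffix 4 (5 and 1 with TMM factors): Cxcl1, which attracts neutrophils (46.7 and 14.4 CPM), the T-cell attractants Cxcl9, Cxcl10 and Ccl5, and Spp1, osteopontin (15.8 and 5.37 CPM). Ccl5 is a lymphocyte product too, at 5563 and 2386 CPM in the lymphocyte barcodes, and had 16.0 and 5.75 CPM in hepatocytes; their part in the hepatocyte value was not tested. Spp1 sat in few cells: without the 8% deepest barcodes its log2 ratio was -3.84. Of 24 interferon-induced genes (of 37), Rsad2 and Igtp were past 2-fold in suffix 2 and 0 in suffix 4 (2 and 1 with TMM factors).

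Cytoskeletal genes that other liver cells also express leaned to suffix 2. Of 20 keratin, actin and adhesion genes compared (of 34), 6 were past 2-fold in suffix 2 and 0 in suffix 4 (5 and 0 with TMM factors). Tmsb10, which binds actin monomers, had 319 CPM (313-326) and 75.04 CPM (71.9-78.2), a ratio of 4.25 (4.06-4.46), Vim, vimentin, 22.4 and 5.78 CPM, and Tagln2, an actin-binding protein, 107 and 43.8 CPM. The lymphocyte barcodes held far more, 8092 and 6703 CPM of Tmsb10 and 560.0 and 367 CPM of Vim. The keratins of hepatocytes were near balance, Krt8 at 847 and 712 CPM and Krt18 at 693 and 711 CPM. Pkm, a pyruvate kinase that adult hepatocytes make little of, had 129.6 and 33.2 CPM, a ratio of 3.91 (3.64-4.19), and 528 and 290.3 CPM in lymphocyte barcodes. Of 11 clock genes compared (of 19), the output genes Dbp (37.4 and 10.8 CPM) and Usp2 (19.5 and 6.32 CPM) were past 2-fold in suffix 2, also with TMM factors, whereas Arntl, of the clock's positive arm, had a log2 ratio of -0.47 and the repressor Nr1d1 one near 0.

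Lipid genes did not all go the same way. Apoa4, an apolipoprotein of triglyceride-rich particles, had 505 CPM (497-513) and 131 CPM (127-135), 3.86-fold higher in suffix 2 (3.72-4.00). Of 20 fatty acid synthesis genes, Scd1 and Scd2, which put the first double bond into fatty acids, were past 2-fold in suffix 2 (701 and 295 CPM for Scd1, 168 and 60.1 CPM for Scd2), with TMM factors 1 was, and the list's median was 0.44. The fatty acid carriers Fabp5 (209.7 and 56.3 CPM) and Cd36 (65.7 and 23.2 CPM) were 3.72- and 2.84-fold higher. Of the 24 cholesterol synthesis genes, 2 were past 2-fold in suffix 2, of which 1 is given here, and 2 in suffix 4. With TMM factors 0 and 2 were, and the list median was -0.002. Idi1 and Fdps, of the isoprenoid steps, were 2.31- and 2.19-fold higher in suffix 4. Dhcr7, a late step, was 2.05-fold higher in suffix 2, though not past 2-fold with TMM factors. Of 34 genes of fatty acid oxidation, 0 were past 2-fold in either direction and the list median was -0.02.

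**Figure D2:**
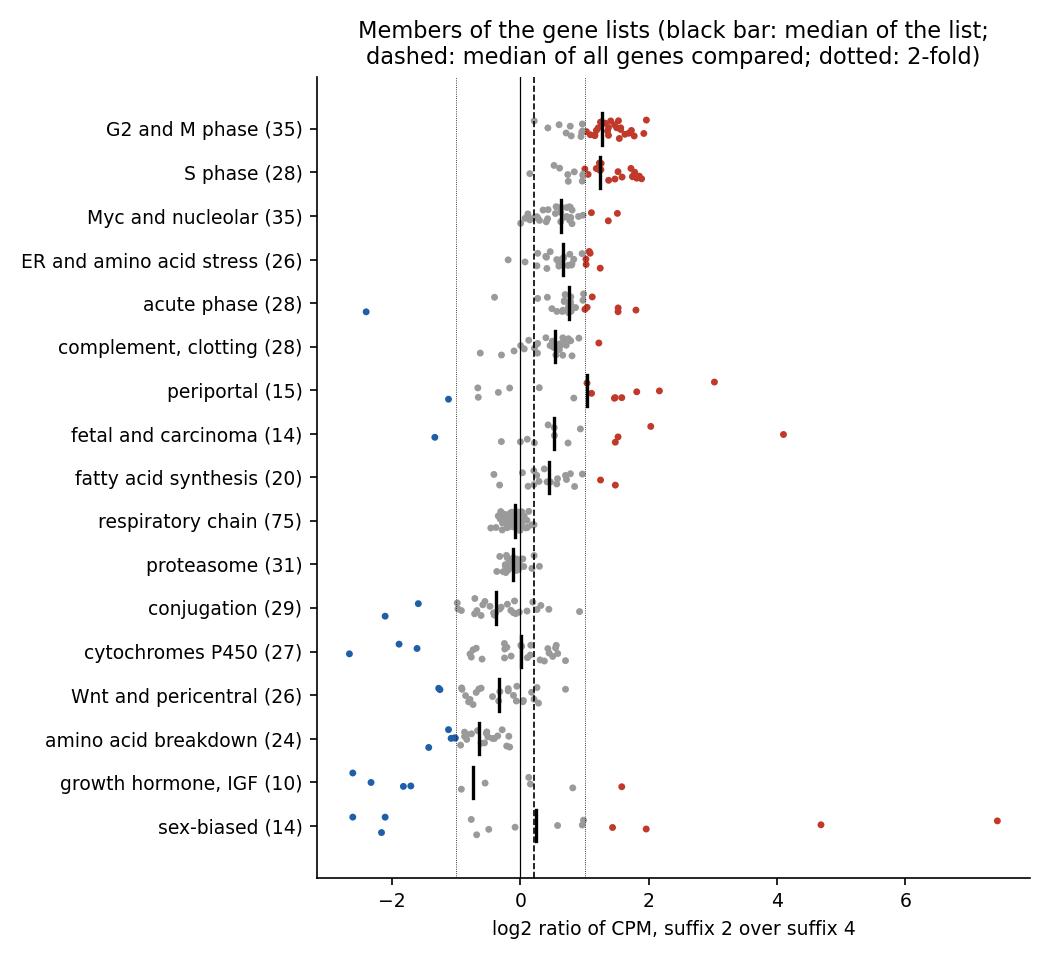
Each point is a member of a gene list, placed by its log2 ratio of CPM (suffix 2 over suffix 4); black bars are list medians, the dashed line is the median of all genes compared (0.21) and dotted lines mark 2-fold. The cell-cycle lists lie farthest to the right, with medians of 1.25 and 1.27, and amino acid breakdown and growth hormone genes to the left, with medians of -0.64 and -0.73.

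Fetal and carcinoma genes were not of a piece. Dlk1, a fetal liver surface protein, had 19.8 CPM (18.3-21.5) in suffix 2 and 1.16 CPM (0.801-1.62) in suffix 4, a ratio of 17.2 (12.1-25.01), with up to 87 UMIs in 1 cell. In cells with under 2 G2 and M phase UMIs its log2 ratio was -0.352. That setting favours shallow cells: at 1000 UMIs, 55.8% of suffix 2 and 32.0% of suffix 4 hepatocytes already held at least 2 such UMIs. Afp, the fetal counterpart of albumin, had 172 and 103 CPM, and Igf2, fetal insulin-like growth factor, 579.9 and 401 CPM. H19, the imprinted non-coding RNA beside Igf2, had 3597 and 3337 CPM, a log2 ratio of 0.11 that was -0.15 with TMM factors, and Gpc3, a glypican used as a tumour marker, had 23.2 CPM in both. Meg3, another imprinted RNA, was 2.52-fold higher in suffix 4 (9.25 and 23.3 CPM). Peg10, under the minimum level, had 424 UMIs against 2, and Peg3 138 against 0. Of the 14 members compared (of 33), 4 were past 2-fold in suffix 2 (Dlk1, Cdkn1c, Lcn2 and Scd2) and Meg3 in suffix 4. With TMM factors 3 and 1 of 13 were. Lcn2 and Scd2 were also counted above, in the acute-phase and fatty acid synthesis lists.

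Shares of cells at equal depth show how widely the leading genes were held, and are set beside lymphocyte barcodes, where hepatocyte RNA should be absent and which were not required to lack hepatocyte UMIs. At 1000 UMIs, Oat was seen in 63.0% of suffix 2 hepatocytes and 91.5% of suffix 4 hepatocytes (87.9% and 97.9% unthinned), and in 45.8% and 69.2% of lymphocyte barcodes. Glul was seen in 81.6% and 93.5% (97.2% and 99.1% unthinned), against 64.7% and 76.8%. The lymphocyte shares of both genes were high and were also higher in suffix 4. Mup20 was seen in 12.2% and 44.2% (31.4% and 72.7% unthinned), against 5.13% and 24.9%, and Nudt7 in 9.77% and 35.5% (37.2% and 65.7% unthinned), against 2.24% and 8.04%. Ces3a was seen in 0.918% and 7.11% (4.53% and 21.3% unthinned), against 0.395% and 3.09%. In each of these the hepatocyte share was above the lymphocyte share of its own library.
Sult1e1, Hsd17b6, Dlk1 and Mki67, all higher in suffix 2, were seen in under 10% of its cells at that depth, and Apoa4 in 25.9% of them and 8.11% of suffix 4 hepatocytes (53.7% and 23.6% unthinned), against 12.5% and 4.17% of lymphocyte barcodes. Sult1e1 was seen in 7.34% and 0.213% of hepatocytes (23.8% and 1.42% unthinned), against 2.24% and 0.155% of lymphocyte barcodes, and Hsd17b6 in 9.77% and 1.72% (24.2% and 5.12% unthinned), against 3.82% and 0.309%. Dlk1 was seen in 0.744% and 0.170% (2.07% and 0.370% unthinned), against 0.395% and 0%, where a count of 0 allows a share of up to 0.464%. Mki67 was seen in 4.71% and 1.45% (13.9% and 4.81% unthinned), against 4.34% and 1.85%, and its share in suffix 4 was below the lymphocyte share.

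**Figure D3:**
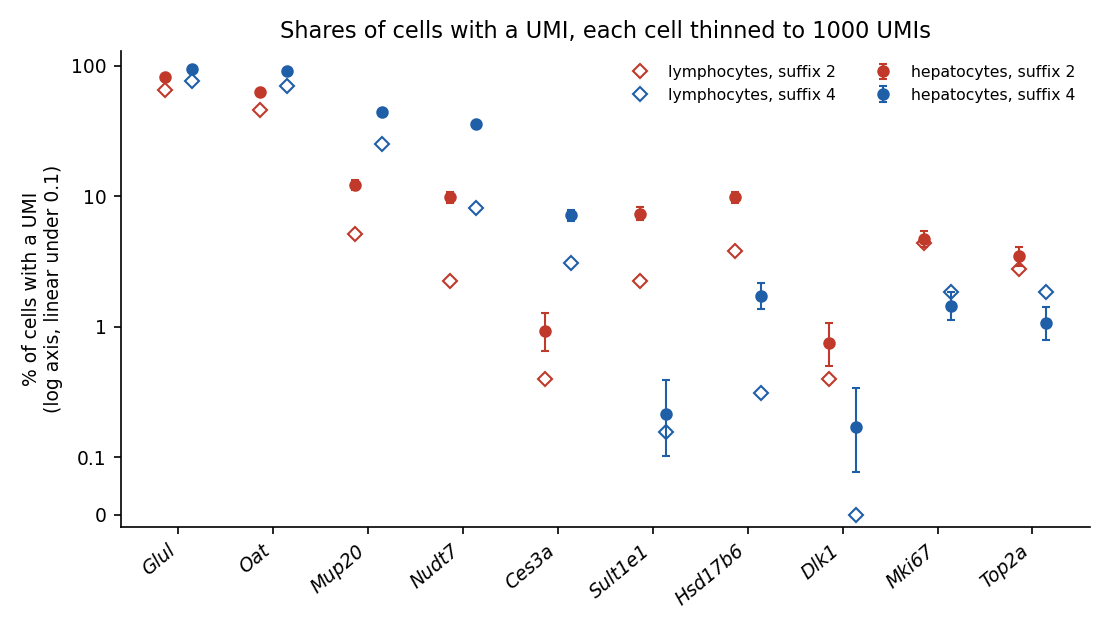
For 10 genes, the vertical axis gives the percentage of cells with a UMI after thinning to 1000 UMIs (log axis, linear under 0.1); filled circles are hepatocytes with exact 95% binomial intervals and open diamonds lymphocyte barcodes, red for suffix 2 and blue for suffix 4. Oat and Mup20 are higher in suffix 4 in both kinds of barcode, and Sult1e1 and Hsd17b6 are higher in suffix 2.

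Some of the differences lay in barcodes that carried RNA of other cells. Hbb-bs, adult beta globin, had 302 CPM in suffix 2 and 74.9 CPM in suffix 4; 72 and 15 barcodes with at least 5 haemoglobin UMIs held 98.3% and 97.5% of its UMIs, and without them 5.18 and 1.91 CPM were left; with a hepatocyte sum of at least 50 UMIs its log2 ratio was -0.388. Igkv9-124, an antibody light chain segment, had 1844 UMIs against 0, at least 615-fold higher in suffix 2 against a floor of 3 counts in the suffix 4 sum; 12 barcodes with at least 3 immunoglobulin UMIs, all in suffix 2, held 88.4% of them. S100a9, of neutrophil granules, was 6.21-fold higher in suffix 4 (2.82 and 17.5 CPM), and 36 barcodes with at least 3 neutrophil UMIs held 94.0% of its UMIs there; 1.06 CPM were left. Hbb-bs, Igkv9-124 and S100a9 were themselves among the genes that picked these barcodes, so their high shares were partly set by the choice. That all 12 immunoglobulin barcodes were in suffix 2 was likewise partly set by Igkv9-124. Ighv1-54, an antibody segment not used to pick them, had 96.0% of its 429 suffix 2 UMIs in the 12 barcodes. Without all barcodes of these 3 kinds, thresholds set after the data were seen, the counts were 314 and 48 genes.
Summed over their marker lists, which include genes the rule capped, erythroid markers had 536 and 198 CPM, neutrophil markers 282 and 130.4 CPM (mostly Lcn2, which hepatocytes express), macrophage markers 93.7 and 37.3 CPM, B and plasma cell markers 20.7 and 4.69 CPM, T and NK cell markers 24.0 and 7.04 CPM, endothelial markers 43.4 and 32.4 CPM, stellate and fibroblast markers 4.46 and 4.18 CPM, and cholangiocyte markers 369 and 201 CPM (mostly Tm4sf4, at 319 and 164 CPM). The neutrophil sum is higher in suffix 2 through Lcn2: S100a8, S100a9, Ngp and Camp had 1.39, 2.82, 0.578 and 0.238 CPM in suffix 2 and 4.96, 17.5, 3.47 and 6.56 CPM in suffix 4. Of these markers, Ltf of neutrophils had 0 UMIs in suffix 2, and Cxcr2 of neutrophils and Cd3g, Cd3e and Trbc2 of T cells had 0 UMIs in suffix 4. Their part in the other differences was not tested.

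Within suffix 2, cells with UMIs of Dlk1, Hsd17b6 or Mki67 were described separately. The cells described next were picked for UMIs of a gene, by thresholds set after the data were seen; they were deeper than the cells without it, and the values are a description. The 55 cells with at least 2 Dlk1 UMIs had a median of 11627 UMIs, against 4606 for the 4204 with none. Summed over them, Afp was at 3443 CPM (3327-3562) against 44.6 CPM, Peg10 at 283 CPM (251-319) against 4.13 CPM, Meg3 at 186 CPM (160.1-216) against 2.69 CPM and Gpc3 at 226 CPM (197-258) against 15.5 CPM. In the same cells Oat was at 216 CPM against 4233, Glul at 1647 CPM against 6097 and Mup20 at 9.37 CPM against 239. These few cells joined fetal and imprinted genes with low Oat and Glul. Slc1a2, also of the Wnt and central-vein list, went the other way, at 187 CPM against 144. Top2a, of dividing cells, was at 99.9 CPM in them against 33.0, and in the cells with at least 3 Mki67 UMIs Dlk1 was at 75.3 CPM against 6.01 and Afp at 561 CPM against 93.2, each against cells with no UMI of the gene they were picked for.
The 220 cells with at least 4 Hsd17b6 UMIs (median 9076 UMIs, against 4290 for 3247 with none) had Ubd, a ubiquitin-like protein, at 94.4 CPM (82.7-107) against 9.63 CPM and Gls2 at 75.6 CPM against 11.6. They also had the interferon-induced genes Isg15 at 424 CPM against 78.4, Irf7 at 182 CPM against 32.6 and Igtp at 122 CPM against 16.7. Jun, an immediate early transcription factor, was at 86.4 CPM against 323, and H19 at 1556 CPM (1507-1606) against 4075 in them.
The 157 cells with at least 3 Mki67 UMIs (median 10439 UMIs, against 4319.5 for 3710 with none) had little Hsd17b6, at 19.1 CPM (13.7-25.9) against 122, and more Jun, at 606 CPM (573-639) against 233. Top2a was at 167 CPM (149.7-185) against 17.1 in them, Gnmt at 844 CPM against 1812, and Oat and Glul were also low, as given below.

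**Figure D4:**
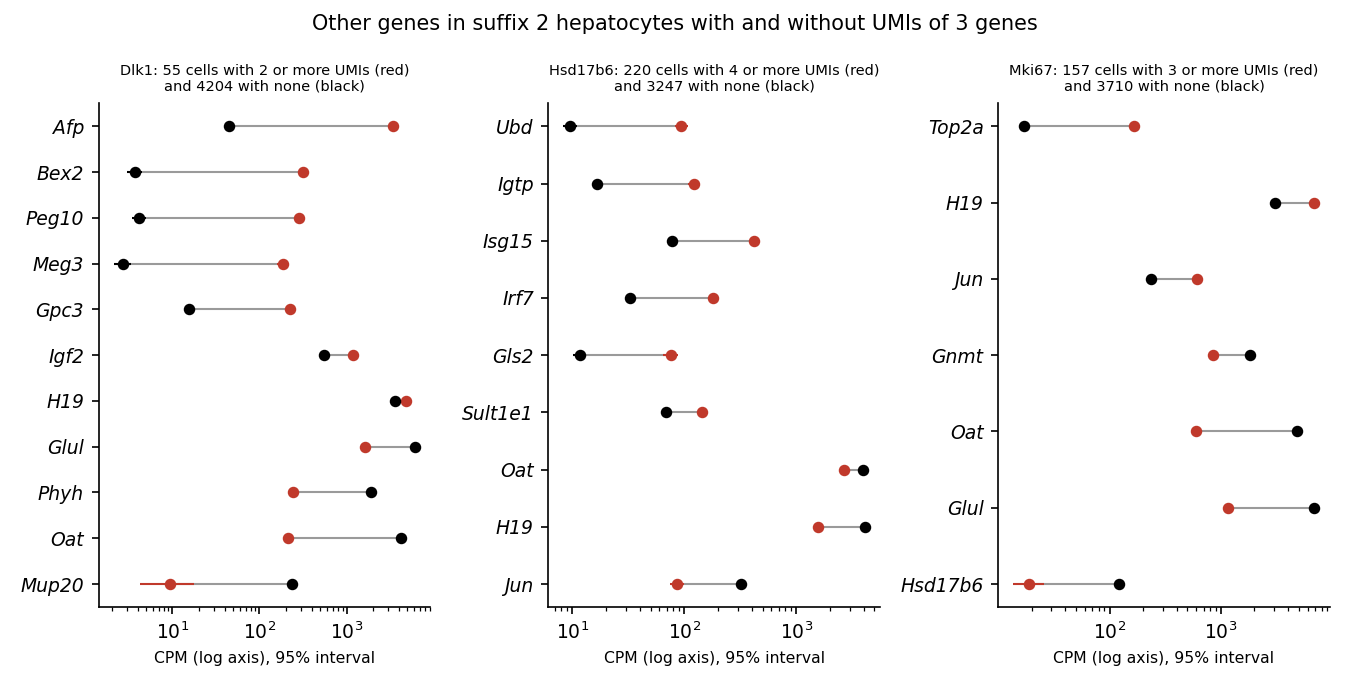
In 3 panels, points give the summed CPM (log axis, 95% Poisson intervals) of other genes in suffix 2 hepatocytes that hold UMIs of Dlk1, Hsd17b6 or Mki67 (red) and in those that hold none (black). Afp lies at 3443 against 44.6 CPM beside Dlk1, Ubd at 94.4 against 9.63 CPM beside Hsd17b6, and Top2a at 167 against 17.1 CPM beside Mki67, while Oat lies to the left of its black point in all 3 panels.

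In suffix 4, the 52 cells with at least 10 Afp UMIs (median 10760 UMIs, against 3619 for 4178 with none) shared Gpc3 (214 CPM against 15.5) and Meg3 (224 CPM against 14.5) with the 63 such cells of suffix 2 (median 11259 UMIs), in which Gpc3 was at 216 CPM and Meg3 at 189 CPM. They differed in Dlk1 and Peg10. Dlk1 was at 32.5 CPM (20.6-48.8) in suffix 4 and 416 CPM (377-458) in suffix 2. Peg10 had 0 UMIs (up to 5.22 CPM) against 286 UMIs, or 282 CPM (250.3-317). H19 and Igf2 were higher in both sets than in cells with no Afp UMI. H19 was at 5045 CPM against 3623.5 in suffix 2 and 7137 CPM against 3228 in suffix 4. Igf2 was at 1187 CPM against 561 in suffix 2 and 747 CPM against 408 in suffix 4. The cells with at least 3 Mki67 UMIs, 157 in suffix 2 (median 10439 UMIs) and 46 in suffix 4 (median 7461.5 UMIs), were alike in their low Oat and Glul. They were not alike in Slc1a2, of the same list. It was at 124 CPM in suffix 2, against 156 in cells with no Mki67 UMI, and at 318 CPM against 219 in suffix 4. Oat was at 593 CPM against 4781 in the 3710 suffix 2 cells with no Mki67 UMI and at 1069 CPM against 10352 in the 4848 of suffix 4, and Glul at 1156 CPM against 6909.6 and at 2428 CPM against 10847. H19 was high in both sets, at 6820.2 CPM against 3087 in suffix 2 and 6668 CPM against 3127 in suffix 4.

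The genes past 2-fold were also set against the hepatocytes of suffix 1 (2362) and suffix 3 (4181). They were picked for their levels in suffixes 2 and 4, which favours lower levels elsewhere. The same counts over all genes compared were not taken, so these are a description. Of the 320 genes past 2-fold in suffix 2, 290 were lower in suffix 1, and 263 lower in suffix 3, than in both suffix 2 and suffix 4. Sult1e1 had 0.362 and 0.830 CPM there, Dlk1 0 and 0.207 CPM, and Mki67 0 and 11.2 CPM, where 0 UMIs in suffix 1 allow up to 0.543 CPM. Lcn2 was among the exceptions, at 15.0 CPM in suffix 1 and 585 CPM in suffix 3. Of the 49 genes past 2-fold in suffix 4, 27 were higher in suffix 1, and 20 in suffix 3, than in both. Mup20 was at 3701 and 12789.5 CPM there, Nudt7 at 3490.1 and 2650.1 CPM and Igf1 at 486 and 582 CPM, so suffix 4 lay between those levels and suffix 2. The central-vein enzymes were ordered otherwise: Glul, at 534 and 1351 CPM in suffixes 1 and 3, Oat, at 574 and 382 CPM, and Nkd1, at 1.99 and 15.4 CPM, were lower there than in suffix 2 and highest in suffix 4. H19 was also lower in suffix 1 (0.181 CPM) and suffix 3 (629 CPM) than in suffixes 2 and 4.

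**Figure D5:**
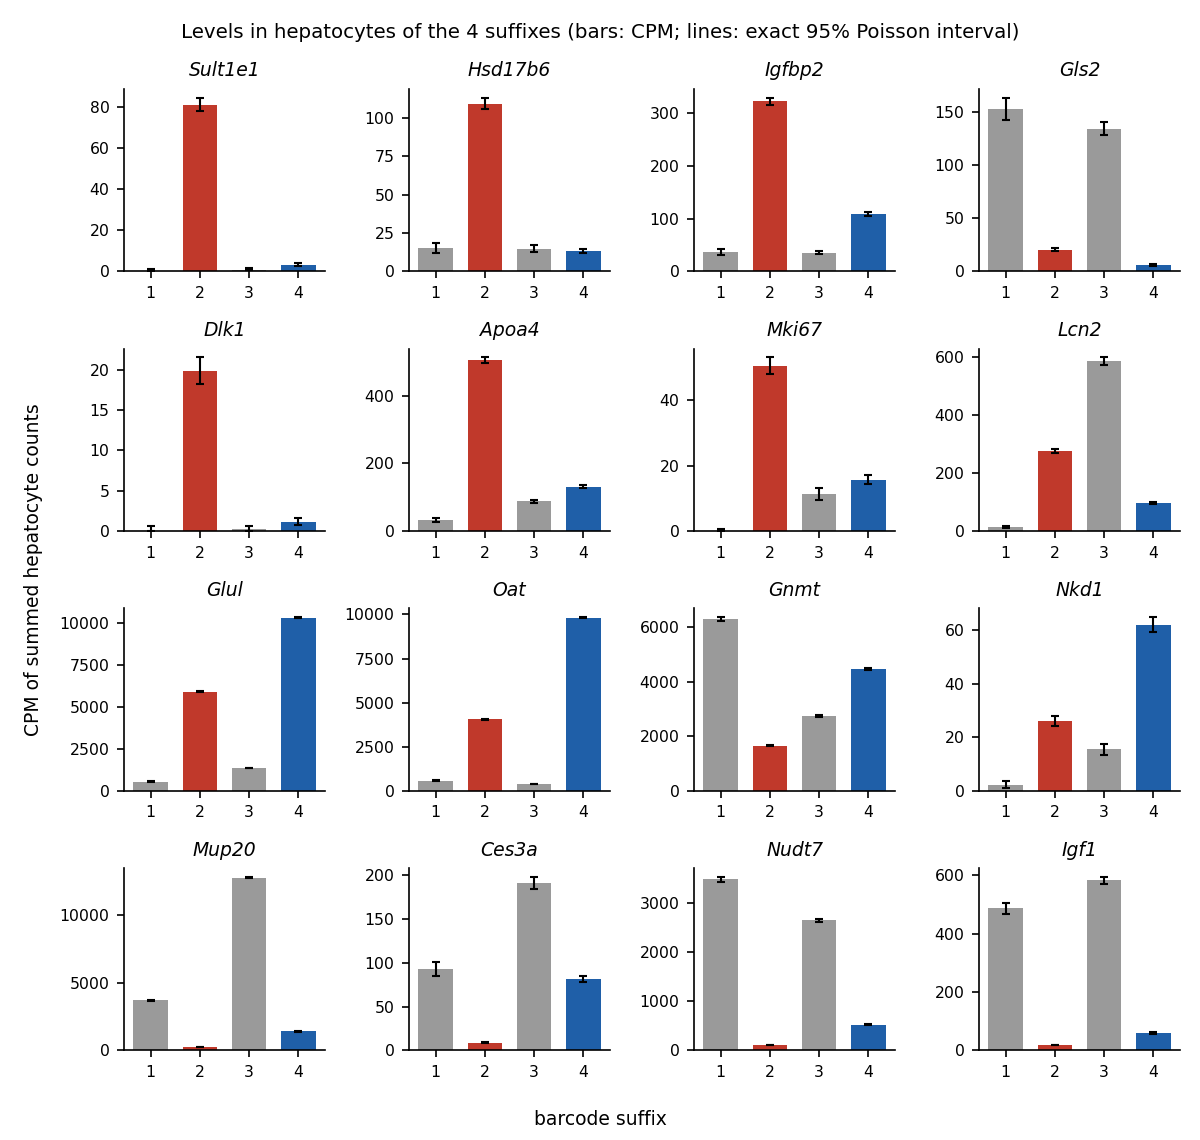
Bars give the summed hepatocyte level in CPM of 16 genes in barcode suffixes 1 to 4 (linear axes from 0), with exact 95% Poisson intervals for counting error. Sult1e1 and Dlk1 are near 0 outside suffix 2, Glul, Oat and Nkd1 are highest in suffix 4, and Mup20, Nudt7 and Igf1 are highest in suffix 1 or 3.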

How the data were processed

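Single-cell RNA was measured in 4 samples, deposited as 1 pooled matrix of UMI counts whose barcodes carry suffixes 1 to 4. Per the file headers, the counts were made by the authors with Cell Ranger 6.0.1, and the submitters' processing notes name the genome build mm9. No file maps suffixes to samples. The members and gene lists were chosen with earlier results of these data known. UMI counts were summed over the hepatocyte barcodes of each suffix and divided by the total (CPM), with Python 3.11.15, scipy 1.17.1 and exact intervals (Poisson for levels, conditional binomial for ratios, Clopper-Pearson for shares).  No test was run, since a suffix is 1 library. TMM factors came from edgeR 4.0.16. The script was tested on simulated data. No doublet caller was run; the 8% deepest barcodes were left out as an alternative.

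Named genes were the 12 with the largest ratio and the 8 with the largest CPM difference in each direction, and in each list up to 5 members past 2-fold and the most abundant member; other genes named were chosen after their values were seen, and some genes are not reported here. Genes with near-identical copies (Mup, Serpina, Saa, globin, Cyp2c, Cyp3a, Sult2a, Gst and Akr1c families, and antibody segments) may share reads and are uncertain. Promoter windows came from RefSeq (GRCm38.p6), another build than that of the counts, and were matched by symbol, with a window for 124 of 174 genes described. Alternatives were TMM factors, totals without the 50 most abundant or the mitochondrial genes, thinning, other filters on genes, folds and cells, and, chosen after seeing the data, leaving out barcodes with other cells' RNA and keeping cells of 2000 to 10000 UMIs.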

Additional observations from a re-analysis of the deposited data

How the results depend on the processing

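The counts of genes past 2-fold (320 in suffix 2, 49 in suffix 4) moved by more than 1.5 times under these alternatives: 152 and 101 with TMM factors, 716 in suffix 2 with cells thinned to 1000 UMIs, 207 in suffix 2 with a hepatocyte sum of at least 50 UMIs, 930 and 221 in cells with under 2 G2 and M phase UMIs, 529 in suffix 2 in cells with 2000 to 10000 UMIs, 1181 and 151 at a mean of at least 1 CPM, 50 and 20 at 50 CPM, 72 and 18 at 3-fold, and 1250 and 193 at 1.5-fold. The changes with another fold or minimum level follow from fewer or more genes qualifying; for the rest the cause was not tested. Directions reversed for Dlk1 (log2 ratio -0.352) and Saa3 (-1.0525) in cells with under 2 G2 and M phase UMIs, for Hba-a1 (-0.6021), Hba-a2 (-0.7192), Hbb-bs (-0.388), Hbb-bt (-0.2625) and the median of the 6 erythroid markers compared in the main analysis (-0.4951) with a hepatocyte sum of at least 50 UMIs, and for Spp1 without the 8% deepest barcodes (-3.8411), in cells with no Afp UMI (-3.6881) and in cells with 2000 to 10000 UMIs (-3.3749). No paired analysis was possible because each suffix is 1 library with no replicate number.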
